A study of Mus musculus with 12 samples.

Results

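The genes described here are 8 mouse genes whose names carry the symbol Cdkn: Cdkn1a, Cdkn1b, Cdkn1c, Cdkn2a, Cdkn2b, Cdkn2c, Cdkn2d and Cdkn3. They were taken by gene symbol from the count tables of jejunal enteroids, which list 18929 genes in all, and all 8 were listed and had enough counts to be tested in every comparison. The rule used gene symbols alone, and some of these genes, Cdkn1a above all, are widely regarded as repressed by the histone deacetylases HDAC1 and HDAC2.

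Cyclin-dependent kinases drive cells from one phase of the cell cycle to the next, and the products of these genes restrain them. The Cip/Kip proteins p21, p27 and p57 (Cdkn1a, Cdkn1b and Cdkn1c) bind complexes of cyclins with several kinases, whereas the Ink4 proteins p16Ink4a, p15, p18 and p19Ink4d (Cdkn2a, Cdkn2b, Cdkn2c and Cdkn2d) bind CDK4 and CDK6 and keep the retinoblastoma protein active, while Cdkn3 encodes a phosphatase that acts on CDK2. In the intestine, p21 and p27 are known from cells that leave the crypt and stop dividing, and histone deacetylase inhibitors are well known to raise p21 in many cell types.

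Enteroids are epithelial cultures grown from crypts, here from the jejunum of mice on a mixed C57BL/6J X 129SV X CD1 background and kept for 5 days in ENR medium. The 3 groups of 4 RNA-Seq libraries were controls, called wild-type in the sample labels and villin-Cre in the study's text, Hdac1-deficient enteroids and Hdac2-deficient enteroids, in which floxed Hdac1 or Hdac2 was deleted by Cre under the villin promoter of intestinal epithelium. The question was how the loss of 1 deacetylase changed each inhibitor gene and whether both losses changed it alike. Since crypts of a single mouse per genotype are described in the methods, replicate libraries may share a mouse, p-values measure the spread between libraries only, and genotype and source mouse cannot be told apart. Xist RNA, which is made from an inactive X chromosome, was far lower in every control library than in every mutant library. This difference cannot be told apart from genotype in either comparison with control (values below).

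Libraries held 20692613 to 30656263 counts on listed genes, so that 3 counts, taken as the floor of detection and covering counting error only, were worth 0.0971 to 0.145 CPM (counts relative to the TMM-scaled library size). Hdac1 transcripts were at 90.6 ± 2.76 CPM (SD, n = 4) in control, 4.23 ± 0.834 in the Hdac1-deficient and 75.3 ± 4.39 in the Hdac2-deficient enteroids, and Hdac2 transcripts at 137 ± 3.85, 112 ± 3.83 and 75.9 ± 2.89 CPM, so that Hdac2 RNA was only partly lower in the Hdac2-deficient libraries. These are counts over whole genes and do not single out the deleted exons. Of the epithelial markers, 9 of 9 were listed, with a summed level of 8290 to 11144 CPM, against 4.95 to 7.48 CPM for the 4 of 9 mesenchymal and 1 to 1.91 CPM for the 3 of 6 immune markers listed and 0.332 to 0.938 CPM for the 2 of 4 endothelial markers. The tables did not list the defining markers Acta2, Col3a1, Cd3e and Adgre1.

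Sequences next to annotated starts are shown for the members whose transcripts rose in at least 1 mutant. The stretches are from the RefSeq promoter table on GRCm38.p6, each up to 250 bases before a start, trimmed where the annotated transcript begins. Capitals mark GC boxes (GGGCGG, searched on both strands), the motif bound by Sp family factors. Cdkn2a (ENSMUSG00000044303, minus strand) has 2 annotated transcripts that begin at different first exons: the outer start belongs to the p19Arf transcript and the inner start to the p16Ink4a transcript.
Cdkn2a, outer start, chr4:89294654-89294869, minus strand: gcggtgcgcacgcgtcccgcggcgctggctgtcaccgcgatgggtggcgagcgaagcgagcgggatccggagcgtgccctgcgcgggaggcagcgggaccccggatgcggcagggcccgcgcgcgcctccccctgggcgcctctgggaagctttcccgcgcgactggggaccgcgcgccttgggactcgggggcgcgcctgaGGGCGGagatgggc
Cdkn2a, inner start, chr4:89282193-89282442, minus strand: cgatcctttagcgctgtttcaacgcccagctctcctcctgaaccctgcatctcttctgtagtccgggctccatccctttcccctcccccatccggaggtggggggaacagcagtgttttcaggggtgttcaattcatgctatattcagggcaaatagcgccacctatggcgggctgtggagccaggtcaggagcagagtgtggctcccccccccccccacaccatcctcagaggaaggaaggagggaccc
Cdkn2b, chr4:89311040-89311282, minus strand: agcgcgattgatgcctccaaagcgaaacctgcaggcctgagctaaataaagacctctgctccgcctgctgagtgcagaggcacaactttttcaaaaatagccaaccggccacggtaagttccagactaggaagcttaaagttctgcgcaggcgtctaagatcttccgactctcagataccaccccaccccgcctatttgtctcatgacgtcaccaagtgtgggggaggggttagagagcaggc
Cdkn1a, proximal start, chr17:29093519-29093768, plus strand: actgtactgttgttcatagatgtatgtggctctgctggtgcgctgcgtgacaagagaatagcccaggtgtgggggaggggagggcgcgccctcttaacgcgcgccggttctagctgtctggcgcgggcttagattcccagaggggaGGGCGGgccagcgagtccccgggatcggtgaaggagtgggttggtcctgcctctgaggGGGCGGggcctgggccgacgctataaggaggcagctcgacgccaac

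The window of Cdkn1a at the proximal start held 2 GC boxes, and the outer window of Cdkn2a held 2, of which 1 lies in the bases left out above. The inner window of Cdkn2a, the window of Cdkn2b and the distal window of Cdkn1a, which is not shown, held 0. Of all 32851 promoter windows of this length, 32.7% held at least 1 GC box and 16.7% held 2 or more. Among the members, 7 of 8 had an entry, with 10 windows in all, and 6 of those 7 held a GC box in at least 1 window. This count is per gene, and some members had more than 1 window, so the shares over single windows are not its background. A match is a description of the letters and not of a bound factor.

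Compared with control, 2 of the 8 inhibitor genes rose and 3 fell in the Hdac1-deficient enteroids, by the quasi-likelihood test of edgeR with a limit of 0.05 on the adjusted p, the test behind every adjusted p given here. In Hdac2-deficient enteroids 3 rose and 3 fell. These counts were close to the background: 64.6% of the 14246 genes tested changed in the Hdac1 comparison (32.7% up and 31.9% down), and 62.3% of the 14007 genes tested in the Hdac2 comparison (31.4% up and 30.9% down). The median log2 fold change of the members was 0.03 and 0.01, beside -0.00 for all genes in both comparisons. Past a 2-fold limit as well, 1 member rose in each mutant and 0 fell, which was Cdkn2a in both, while 6.87% and 5.45% of all genes rose that far and 3.71% and 2.84% fell that far (10.6% and 8.3% in either direction). Both comparisons use the same 4 control libraries, so their values stand side by side without a test of likeness.

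**Figure D1:**
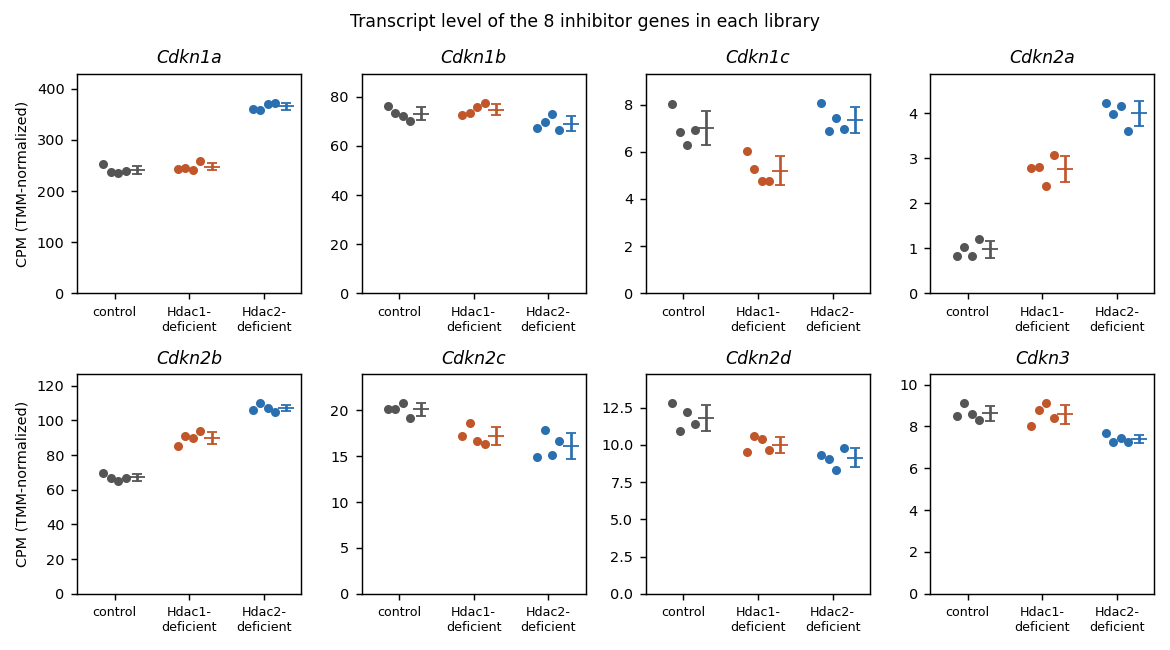
Each panel shows 1 inhibitor gene, with CPM from 0 on the vertical axis, a point for each of the 4 libraries of a group, and a bar for the mean and SD beside them. Cdkn2a and Cdkn2b were lowest in control and highest in the Hdac2-deficient libraries without overlap, and Cdkn1a stood apart in the Hdac2-deficient libraries only.

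Among the Cip/Kip genes, Cdkn1a and Cdkn1c each changed in 1 mutant and Cdkn1b in neither. Cdkn1a (ENSMUSG00000023067, chr17:29090976-29100727 on GRCm38, plus strand) encodes p21, which halts the cycle after DNA damage and on differentiation. Its transcripts were at 253, 238, 235 and 240 CPM in the control libraries, 244, 246, 242 and 259 in the Hdac1-deficient and 361, 358, 370 and 373 in the Hdac2-deficient libraries. The control and Hdac1-deficient values overlapped, and all 4 Hdac2-deficient values lay above both. Cdkn1a was 1.53-fold higher in the Hdac2-deficient enteroids than in control (log2 fold change 0.61, SE 0.03, adjusted p = 1.8e-13), a larger change than that of 82.3% of genes tested. In Hdac1-deficient enteroids the log2 fold change was 0.05, with a 95% interval from -0.02 to 0.12 (adjusted p = 0.18). The direct comparison of the mutants gave 1.48-fold more Cdkn1a in the Hdac2-deficient enteroids (log2 fold change of Hdac1-deficient against Hdac2-deficient -0.56, SE 0.03, adjusted p = 5.1e-14).

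Cdkn1b (ENSMUSG00000003031, chr6:134920401-134925513, plus strand) encodes p27, a brake on CDK2 that is mostly set by protein turnover. It was at 76.4, 73.2, 72.3 and 70 CPM in control, 72.5, 73.5, 75.7 and 77.6 in the Hdac1-deficient and 67.1, 69.9, 72.8 and 66.3 in the Hdac2-deficient libraries. The ranges of all 3 groups overlapped. The log2 fold change was 0.05 in the Hdac1-deficient (95% interval -0.03 to 0.13, adjusted p = 0.26) and -0.07 in the Hdac2-deficient enteroids (-0.15 to 0.01, adjusted p = 0.12). Against each other the mutants differed by 0.12 (SE 0.04, adjusted p = 0.014), a call that was lost without Hdac2-deficient replicate 1 (adjusted p = 0.0504) or replicate 4 (adjusted p = 0.058).

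Cdkn1c (ENSMUSG00000037664, chr7:143458339-143461050, minus strand) encodes p57 and is imprinted, expressed from the maternal allele. It was at 8.01, 6.82, 6.27 and 6.93 CPM in control, 6.04, 5.25, 4.75 and 4.75 in the Hdac1-deficient and 8.08, 6.88, 7.45 and 6.98 in the Hdac2-deficient libraries. All Hdac1-deficient values lay below those of both other groups, and the control and Hdac2-deficient values overlapped. Cdkn1c was 1.34-fold lower in the Hdac1-deficient enteroids than in control (log2 fold change -0.42, SE 0.10, adjusted p = 0.0012). In Hdac2-deficient enteroids the value was 0.08 (95% interval -0.11 to 0.27, adjusted p = 0.46), and the difference between the mutants was -0.50 (SE 0.10, adjusted p = 1.6e-04). Opposite-strand transcripts overlap Cdkn1a (AC167363.2) and Cdkn1c (Gm44732) in the annotation. The tables list neither, and whether the counting used strand is not given in the sources used here.

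Among the Ink4 genes, Cdkn2a and Cdkn2b rose in both mutants, and Cdkn2c and Cdkn2d fell in both. Cdkn2a (chr4:89274471-89294653) encodes p16Ink4a and, in another reading frame, p19Arf, which stabilises p53. Gene counts do not separate the transcripts from the pair of starts shown above. Its counts were 25, 29, 25 and 29 in control, 74, 87, 73 and 85 in the Hdac1-deficient and 115, 102, 86 and 83 in the Hdac2-deficient libraries, which gave 0.838, 1.03, 0.829 and 1.21 CPM, 2.78, 2.82, 2.39 and 3.08 CPM, and 4.24, 3.99, 4.16 and 3.6 CPM. All groups were apart from each other, and every library was well above the floor of 3 counts.

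Cdkn2a was 2.88-fold higher in the Hdac1-deficient enteroids than in control (log2 fold change 1.53, SE 0.17, 95% interval 1.18 to 1.88, adjusted p = 1.1e-07) and 4.16-fold higher in the Hdac2-deficient enteroids (2.06, SE 0.15, interval 1.74 to 2.38, adjusted p = 2.0e-10). Of all genes tested, 94.7% and 97.7% changed by less. The Hdac2-deficient level exceeded the Hdac1-deficient level 1.45-fold (log2 fold change of Hdac1-deficient against Hdac2-deficient -0.53, SE 0.12, adjusted p = 9.6e-04). With any 1 library left out, the log2 fold change against control stayed within 1.45 to 1.64 for Hdac1-deficient and 1.98 to 2.16 for Hdac2-deficient enteroids.

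Cdkn2b (ENSMUSG00000073802, chr4:89306299-89311039, minus strand) lies 11.6 kb from Cdkn2a and encodes p15, known as a target of TGF-beta signalling. It was at 69.5, 66.9, 65.1 and 67 CPM in control, 85.2, 91, 89.7 and 93.8 in the Hdac1-deficient and 106, 110, 107 and 105 in the Hdac2-deficient libraries. The groups followed the same order as for Cdkn2a and did not overlap. Cdkn2b was 1.35-fold higher in the Hdac1-deficient (log2 fold change 0.44, SE 0.04, adjusted p = 5.4e-09) and 1.61-fold higher in the Hdac2-deficient enteroids than in control (0.69, SE 0.03, adjusted p = 2.0e-13), and the mutants differed by -0.25 (SE 0.03, adjusted p = 1.3e-06).

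Cdkn2c (ENSMUSG00000028551, chr4:109660876-109667189, minus strand), which encodes p18, was at 20.1, 20.2, 20.8 and 19.2 CPM in control, 17.2, 18.6, 16.7 and 16.3 in the Hdac1-deficient and 14.9, 17.9, 15.1 and 16.7 in the Hdac2-deficient libraries. Cdkn2d (ENSMUSG00000096472, chr9:21288410-21291407, minus strand), which encodes p19Ink4d, was at 12.8, 10.9, 12.2 and 11.4 CPM, 9.49, 10.6, 10.4 and 9.68 CPM, and 9.33, 9.06, 8.28 and 9.8 CPM. For both genes every mutant library lay below every control library, while the mutants overlapped each other. Cdkn2c fell by 0.21 on the log2 scale in the Hdac1-deficient (SE 0.06, adjusted p = 0.0033) and by 0.30 in the Hdac2-deficient enteroids (SE 0.06, adjusted p = 2.2e-04). Cdkn2d fell by 0.22 (SE 0.07, adjusted p = 0.011) and by 0.36 (SE 0.07, adjusted p = 2.7e-04). Between the mutants neither gene passed the test, with 95% intervals from -0.03 to 0.23 for Cdkn2c (adjusted p = 0.23) and from -0.02 to 0.29 for Cdkn2d (adjusted p = 0.14).

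Cdkn3 (ENSMUSG00000037628, chr14:46760541-46771669, plus strand), whose RNA is known to be highest in dividing cells, was at 8.48, 9.12, 8.59 and 8.31 CPM in control, 8.03, 8.78, 9.11 and 8.41 in the Hdac1-deficient and 7.67, 7.27, 7.45 and 7.25 in the Hdac2-deficient libraries. The Hdac2-deficient values lay below all others, and the other groups overlapped. Cdkn3 fell by 0.21 on the log2 scale in the Hdac2-deficient enteroids (SE 0.07, adjusted p = 0.02), a call that was lost with DESeq2 (adjusted p = 0.061) and without control replicate 2 (adjusted p = 0.062). In Hdac1-deficient enteroids the value was 0.01 (95% interval -0.14 to 0.16, adjusted p = 0.92). The mutants differed by 0.22 (SE 0.07, adjusted p = 0.02), which was lost without Hdac1-deficient replicate 3 (adjusted p = 0.068).

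**Figure D2:**
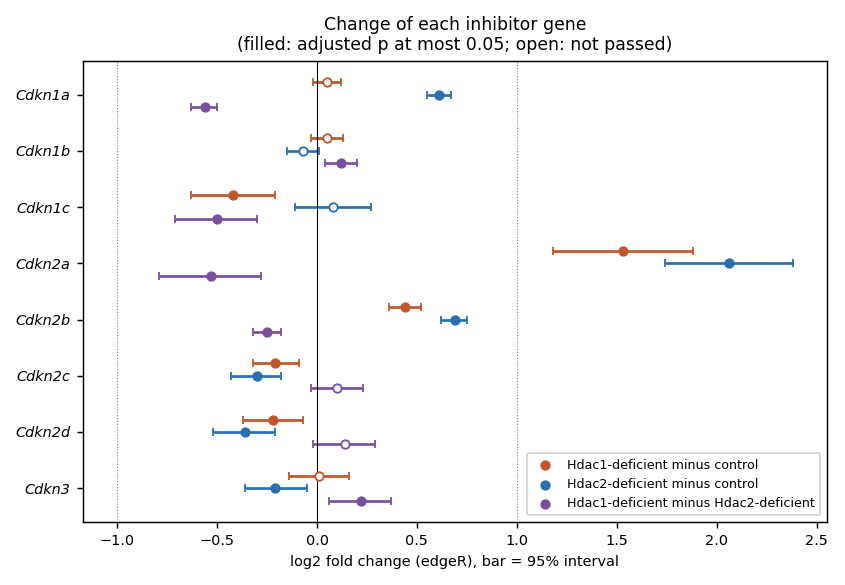
For each inhibitor gene the log2 fold change is drawn with its 95% interval for Hdac1-deficient minus control, Hdac2-deficient minus control and Hdac1-deficient minus Hdac2-deficient enteroids; filled points passed an adjusted p of 0.05 and dotted lines mark a 2-fold change. Cdkn2a, at 1.53 and 2.06, is the member beyond the dotted lines, and Cdkn1a, Cdkn2a and Cdkn1c differ between the mutants by -0.56, -0.53 and -0.50.

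Compared directly, 6 of the 8 members differed between the mutants, against 45.9% of the 14510 genes tested in that fit (22.3% higher and 23.7% lower in the Hdac1-deficient enteroids). Cdkn1a, Cdkn1c, Cdkn2a and Cdkn2b were lower with Hdac1 lost than with Hdac2 lost, and Cdkn1b and Cdkn3 were higher, with 0 members past 2-fold, beside 5.62% of all genes (2.74% higher and 2.89% lower). This fit holds all 12 libraries and tests the difference itself. The median of the members was -0.08, beside 0.01 for all genes.

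Levels of different genes were compared as CPM per kb of annotated exons. In control, Cdkn1a was highest at 67.9 ± 2.22 CPM per kb (SD, n = 4), followed by Cdkn2b at 48.3 ± 1.28 and Cdkn1b at 16 ± 0.578. Cdkn2d (7.5 ± 0.558) and Cdkn2c (7.48 ± 0.25) overlapped, as did Cdkn3 (3.64 ± 0.148) and Cdkn1c (3.44 ± 0.358), and Cdkn2a was lowest at 0.833 ± 0.154. Thus Cdkn2a and Cdkn2b, neighbours on chromosome 4, stood 58-fold apart in control, 27.4-fold in the Hdac1-deficient and 22.6-fold in the Hdac2-deficient enteroids.

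The first 3 places were the same in the mutants. Cdkn1a was at 69.7 ± 2.11 CPM per kb in the Hdac1-deficient and 103 ± 2.01 in the Hdac2-deficient enteroids, Cdkn2b at 64.7 ± 2.59 and 77 ± 1.31, and Cdkn1b at 16.4 ± 0.501 and 15.2 ± 0.652. Cdkn2a reached 2.36 ± 0.242 in the Hdac1-deficient enteroids, where it overlapped Cdkn1c at 2.55 ± 0.298. In Hdac2-deficient enteroids Cdkn1c (3.6 ± 0.268), Cdkn2a (3.41 ± 0.243) and Cdkn3 (3.12 ± 0.0832) lay in that order, each overlapping the next. With the longest transcript as length, Cdkn2a came before Cdkn1c in both mutants (3.09 against 2.73 and 4.47 against 3.87 CPM per kb), again with overlapping ranges. Summed per length, the Cip/Kip genes held 56.3%, 51.5% and 56.1% of the level of all 8 members in control, Hdac1-deficient and Hdac2-deficient enteroids, and the Ink4 genes 41.3%, 46.4% and 42.5%. Both depend on the length used: with the longest transcript in place of all exons, Cdkn1a was at 116, 119 and 176 CPM per kb, and the Cip/Kip share was 65.9%, 61.6% and 66.5%.

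**Figure D3:**
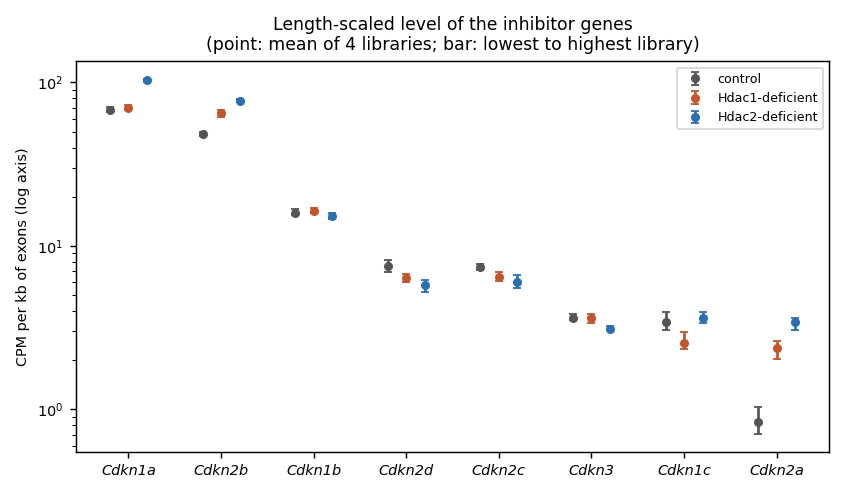
Length-scaled levels of the 8 genes in CPM per kb of exons on a log axis, with a point for the mean of 4 libraries per group and a bar from the lowest to the highest library. The genes span from 0.833 for Cdkn2a in control to 103 for Cdkn1a in the Hdac2-deficient enteroids, and Cdkn2a moves up to the level of Cdkn1c and Cdkn3 in the Hdac2-deficient group.

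Genes within 200 kb of the members were read in the same fits. Of all genes, 32.7% rose and 31.9% fell in the Hdac1 comparison, and 31.4% rose and 30.9% fell in the Hdac2 comparison. Around Cdkn2a and Cdkn2b the protein-coding neighbour Mtap, an enzyme of methionine salvage 93.4 kb from Cdkn2a, was at -0.12 in the Hdac1-deficient (SE 0.04, adjusted p = 0.01) and -0.10 in the Hdac2-deficient enteroids (SE 0.04, adjusted p = 0.06), so the rise of Cdkn2a and Cdkn2b did not extend to it. The lincRNA Gm12603, 189.9 kb from Cdkn2a, was at 0.241 ± 0.0562 CPM in control, 0.282 ± 0.138 in the Hdac1-deficient and 1.48 ± 0.0604 in the Hdac2-deficient enteroids (5 to 9, 6 to 13 and 32 to 38 counts). It rose by 2.60 on the log2 scale in the Hdac2-deficient enteroids (SE 0.25, adjusted p = 1.2e-08), had too few counts for a test in the Hdac1 comparison, and differed between the mutants by -2.39 (SE 0.26, adjusted p = 2.7e-08).

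Around Cdkn1a, 7 neighbours were tested, of which 1 rose and 1 fell in the Hdac1-deficient and 2 rose and 2 fell in the Hdac2-deficient enteroids. Stk38, a kinase gene 83.0 kb away, rose in both mutants (log2 fold change 0.55 in the Hdac1-deficient, adjusted p = 3.4e-10, and 0.44 in the Hdac2-deficient, adjusted p = 2.1e-10). The splicing factor gene Srsf3 (47.6 kb) was at -0.02 (adjusted p = 0.63) and fell by 0.16 (adjusted p = 2.3e-04). Cpne5, a copine gene 54.8 kb away with 11 to 15, 4 to 12 and 7 to 26 counts per library, was at -0.61 (SE 0.33, adjusted p = 0.12) and rose by 0.80 (SE 0.32, adjusted p = 0.033), and the mutants differed by -1.41 (SE 0.35, adjusted p = 0.0016). The lincRNA Trp53cor1, 11.8 kb from Cdkn1a and known as a p53 target, had 0 to 5, 0 to 2 and 4 to 6 counts per library in control, Hdac1-deficient and Hdac2-deficient enteroids, too few to be tested.

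In the imprinted neighbourhood of Cdkn1c, 0 of 7 neighbours tested rose and 5 fell in the Hdac1-deficient enteroids, and 2 rose and 3 fell in the Hdac2-deficient enteroids. Of all genes, 31.9% and 30.9% fell in these comparisons. The smallest of the falls in the Hdac1-deficient enteroids was that of Nap1l4, at -0.08 (adjusted p = 0.038). Phlda2, a placental growth regulator, was at 9.47 ± 0.212 CPM in control and 5.97 ± 0.383 in the Hdac1-deficient enteroids (log2 fold change -0.65, SE 0.08, adjusted p = 4.1e-07). It also fell in the Hdac2-deficient enteroids (-0.21, SE 0.07, adjusted p = 0.017), where Cdkn1c was at 0.08, and the mutants differed by -0.44 (SE 0.08, adjusted p = 4.9e-05). Cars, a cysteine tRNA ligase gene, fell by 0.47 in the Hdac1-deficient enteroids (adjusted p = 1.2e-09) and was at 0.00 in the Hdac2-deficient enteroids (adjusted p = 0.96). The potassium channel gene Kcnq1 fell in both, by 0.61 and 0.48 (adjusted p = 2.2e-11 and 6.0e-12). The antisense transcript Kcnq1ot1 was at 0.748 ± 0.137, 0.335 ± 0.0684 and 0.539 ± 0.369 CPM, with a log2 fold change of -1.13 in the Hdac1-deficient (SE 0.27, adjusted p = 0.0011) and -0.53 in the Hdac2-deficient enteroids (SE 0.44, adjusted p = 0.31). Slc22a18, 12.7 kb from Cdkn1c, went another way, at 0.00 in the Hdac1-deficient enteroids (adjusted p = 0.95) and higher by 0.49 in the Hdac2-deficient enteroids (adjusted p = 1.7e-09).

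The wider list of the imprinted domain and the genes next to it had 12 tested genes, of which 1 rose and 8 fell in the Hdac1-deficient enteroids (median log2 fold change -0.30) and 2 rose and 6 fell in the Hdac2-deficient enteroids (median -0.15). Over all genes, 32.7% and 31.4% rose and 31.9% and 30.9% fell in these comparisons. With 1 library left out, 6 to 8 genes of this list were called in each comparison, against 9 and 8 with all libraries. Ascl2, a transcription factor of crypt stem cells, fell in both (-0.80, adjusted p = 4.1e-08, and -0.44, adjusted p = 5.2e-08). Trpm5, a channel of tuft cells, fell by 0.90 in the Hdac2-deficient enteroids (adjusted p = 6.8e-05) and was at -0.08 in the Hdac1-deficient enteroids (adjusted p = 0.62). The growth factor gene Igf2 was at 0.58 ± 0.098, 0.365 ± 0.0508 and 0.394 ± 0.0956 CPM.

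**Figure D4:**
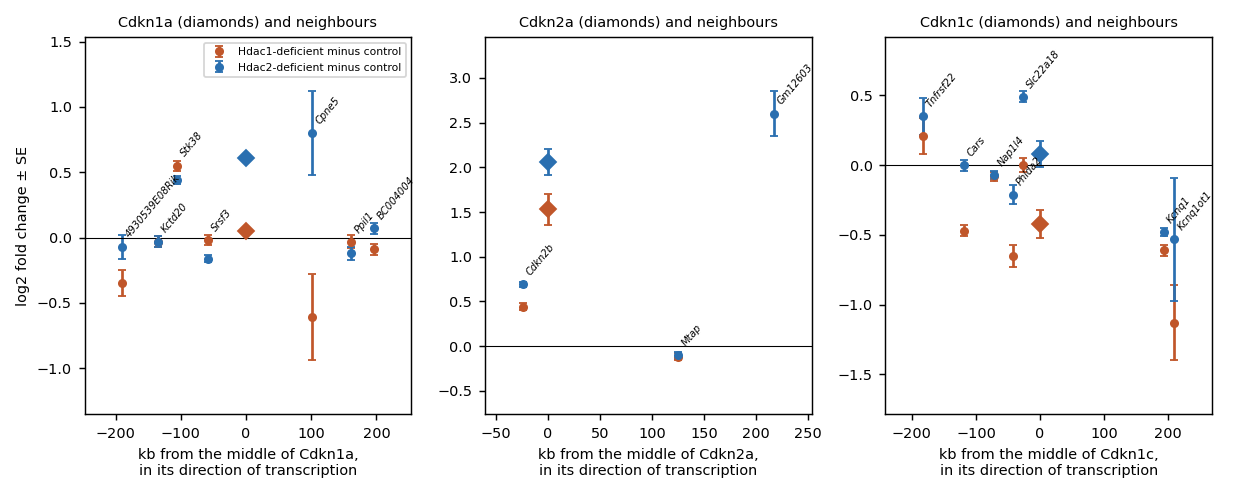
Log2 fold changes with SE for the tested genes within 200 kb of Cdkn1a, Cdkn2a and Cdkn1c, against the distance in kb between gene middles, with the member as a diamond at 0. Mtap lies at -0.12 and -0.10 beside the raised Cdkn2a and Cdkn2b, and most genes around Cdkn1c lie below 0 in the Hdac1-deficient enteroids.

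Around Cdkn2d, 2 of 14 genes tested rose and 5 fell in the Hdac1-deficient enteroids, and 4 of 15 rose and 6 fell in the Hdac2-deficient enteroids. Pde4a, a cyclic AMP phosphodiesterase gene, was at -1.80 in the former (SE 0.13, adjusted p = 2.8e-10) and -0.03 in the latter (SE 0.11, adjusted p = 0.85). The sphingosine phosphate receptor gene S1pr5 had 16 to 21 counts in control, 0 to 3 in the Hdac1-deficient and 4 to 9 in the Hdac2-deficient libraries. Faf1, 9.4 kb from Cdkn2c, fell in both mutants, as Cdkn2c did (-0.39, SE 0.03, adjusted p = 5.5e-09 with Hdac1 lost, and -0.19, SE 0.03, adjusted p = 3.7e-05 with Hdac2 lost). Of 7 genes tested around Cdkn1b, 1 rose and 1 fell with Hdac1 lost and 2 rose and 2 fell with Hdac2 lost, among the latter 2810454H06Rik at -1.02 (SE 0.33, adjusted p = 0.0095). Of 5 around Cdkn3, 2 rose and 1 fell with Hdac1 lost and 1 rose and 1 fell with Hdac2 lost. Cnih1, 3.9 kb from Cdkn3, was at -0.10 (SE 0.04, adjusted p = 0.023) and -0.24 (SE 0.04, adjusted p = 1.0e-05).

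The genes on which the inhibitors act were read from lists of known pathway members. Of 17 cyclins, kinases and CDC25 phosphatases, 1 rose and 8 fell in the Hdac1-deficient enteroids (median log2 fold change -0.07), and 0 rose and 12 fell in the Hdac2-deficient enteroids (median -0.33). Over all genes, 32.7% rose and 31.9% fell in the former and 31.4% rose and 30.9% fell in the latter. Cdk4, the main target of the Ink4 proteins, was at 328 ± 12.6 CPM in control, 231 ± 11.2 in the Hdac1-deficient and 232 ± 5.02 in the Hdac2-deficient enteroids, a fall of 0.49 in both (adjusted p = 7.4e-10 and 1.6e-11). Ccna2, the cyclin A of S phase, fell by 0.48 and 0.53 (adjusted p = 7.4e-11 and 7.2e-13), and Cdc25b, which activates CDK1, by 0.76 and 0.64 (adjusted p = 3.0e-12 and 5.6e-11). Between the mutants 8 of the 17 were higher and 1 lower in the Hdac1-deficient enteroids, beside 22.3% and 23.7% of all genes.

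Of 13 pocket protein and E2F genes, 5 rose and 4 fell in the Hdac1-deficient enteroids (median 0.07) and 3 rose and 9 fell in the Hdac2-deficient enteroids (median -0.14). The shares over all genes were 32.7% up and 31.9% down with Hdac1 lost, and 31.4% up and 30.9% down with Hdac2 lost. E2f2, an activating E2F factor, was at 39.2 ± 1.26, 96.7 ± 4.89 and 65.1 ± 1.79 CPM and rose by 1.32 in the Hdac1-deficient (SE 0.04, adjusted p = 1.2e-15) and 0.74 in the Hdac2-deficient enteroids (SE 0.04, adjusted p = 8.7e-13). E2f1, another activator, fell by 0.50 (adjusted p = 5.5e-08) and 0.64 (adjusted p = 2.6e-09). The repressor E2f7 rose by 0.50 in the Hdac1-deficient enteroids (adjusted p = 3.3e-06) and was at 0.16 in the Hdac2-deficient enteroids (adjusted p = 0.069), while E2f6 was at -0.10 (adjusted p = 0.057) and fell by 0.33 (adjusted p = 5.6e-06).

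Cdkn1a is a target of p53, and 22 genes of that pathway other than Cdkn1a were tested. In Hdac1-deficient enteroids 6 rose and 9 fell (median -0.06), and in the Hdac2-deficient enteroids 11 rose and 2 fell (median 0.14). Over all genes, 32.7% rose and 31.9% fell with Hdac1 lost, and 31.4% rose and 30.9% fell with Hdac2 lost. Between the mutants 1 of the 22 was higher and 13 were lower in the Hdac1-deficient enteroids (median -0.15), where 22.3% of all genes were higher and 23.7% lower. Trp53 itself was at -0.08 in the Hdac1-deficient enteroids (adjusted p = 0.077) and -0.20 in the Hdac2-deficient enteroids (adjusted p = 5.5e-05). Trp53inp1, a stress response gene, was at 20.3 ± 1.03, 41.3 ± 4.09 and 41.2 ± 0.636 CPM, higher by 1.04 and 1.03 on the log2 scale (adjusted p = 4.0e-11 and 6.6e-14), and the exonuclease gene Aen rose by 0.85 and 0.92 (adjusted p = 1.7e-12 and 2.2e-13). Pmaip1, which encodes the death protein Noxa, rose by 0.26 (adjusted p = 5.6e-05) and 0.47 (adjusted p = 1.9e-08). Gdf15, a stress cytokine, fell in both, with values of -1.38 (adjusted p = 2.3e-13) and -1.11 (adjusted p = 4.4e-12). Eda2r and Plk2 fell in the Hdac1-deficient enteroids, by 1.21 (adjusted p = 5.7e-09) and 0.75 (adjusted p = 1.9e-09), and were at -0.14 (adjusted p = 0.12) and -0.11 (adjusted p = 0.086) in the Hdac2-deficient enteroids.

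Of 25 tested regulators of the Cdkn2a-Cdkn2b locus, which include the Polycomb proteins that keep it silent in many cells, 8 rose and 8 fell in the Hdac1-deficient enteroids, and 9 rose and 8 fell in the Hdac2-deficient enteroids (medians -0.04 and -0.03), in both directions close to the shares over all genes (32.7% up and 31.9% down, and 31.4% up and 30.9% down). Cbx7, a Polycomb reader, was at 20 ± 1.08, 46.5 ± 3.99 and 38.7 ± 0.775 CPM and rose by 1.23 (adjusted p = 9.7e-13) and 0.96 (adjusted p = 3.3e-13). Other Polycomb genes went both ways. Ezh2 fell by 0.34 and 0.37 (adjusted p = 1.1e-07 and 1.2e-09), and Suz12 by 0.28 and 0.24 (adjusted p = 7.9e-07 and 9.4e-07). Bmi1 fell by 0.27 and 0.17 (adjusted p = 2.6e-04 and 0.0038), while Phc1 rose by 0.40 and 0.46 (adjusted p = 6.2e-05 and 8.0e-07). Ets1, an activator of p16Ink4a, rose by 0.52 (adjusted p = 5.1e-04) and 0.85 (adjusted p = 8.4e-07), and Id1, which opposes it, by 0.34 (adjusted p = 0.0019) and 1.10 (adjusted p = 8.6e-11). Runx1 fell by 0.51 in the Hdac1-deficient (adjusted p = 3.9e-06) and rose by 0.24 in the Hdac2-deficient enteroids (adjusted p = 0.0047). Kdm6a, an X-linked demethylase of the Polycomb mark, rose by 0.72 and 0.64 (adjusted p = 1.7e-10 and 8.6e-11). Xist, which is transcribed from an inactive X chromosome, was at 1.41 to 1.72 CPM in control, 776 to 1076 in the Hdac1-deficient and 495 to 676 in the Hdac2-deficient libraries. The mutant cultures and the controls thus also differed in Xist, and this difference cannot be told apart from genotype in either comparison with control. Its part in the result for Kdm6a or for the inhibitor genes was not tested.

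Of 22 transcription regulators of the Cip/Kip genes, 9 rose and 4 fell in the Hdac1-deficient and 10 rose and 4 fell in the Hdac2-deficient enteroids (medians 0.06 and 0.07). As background for this list and the turnover genes below, 32.7% of all genes rose and 31.9% fell with Hdac1 lost. With Hdac2 lost, 31.4% rose and 30.9% fell. Myc, a repressor of Cdkn1a, was at 199 ± 6.91, 129 ± 6.43 and 136 ± 1.93 CPM and fell in both, by 0.61 and 0.54 (adjusted p = 2.2e-11 and 1.7e-12). Cebpa rose by 0.53 (adjusted p = 5.3e-11) and 0.30 (adjusted p = 6.0e-07), and Egr1 was at 0.13 (adjusted p = 0.077) and rose by 0.46 (adjusted p = 9.2e-06). Of 13 genes for the turnover of inhibitor proteins, 1 rose and 7 fell, and 1 rose and 8 fell (medians -0.14 and -0.10). Ddb1 and Dtl, parts of a ubiquitin ligase that removes p21, fell by 0.69 and 0.43 in the Hdac1-deficient (adjusted p = 1.5e-12 and 1.3e-07) and by 0.48 and 0.64 in the Hdac2-deficient enteroids (adjusted p = 6.8e-12 and 2.4e-11). Skp1a, part of the ligase that removes p27, fell by 0.31 (adjusted p = 1.4e-07) and 0.09 (adjusted p = 0.021).

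Of 19 proliferation markers, 1 rose and 16 fell in the Hdac1-deficient and 1 rose and 17 fell in the Hdac2-deficient enteroids (medians -0.30 and -0.37), beside 31.9% and 30.9% of all genes that fell. Plk1, a mitotic kinase, fell by 0.96 and 0.69 (adjusted p = 2.2e-15 and 3.1e-14), and the replication helicase genes Mcm3 and Mcm5 by 0.43 and 0.40 in the Hdac1-deficient (adjusted p = 1.2e-09 and 1.8e-08) and by 0.50 and 0.51 in the Hdac2-deficient enteroids (adjusted p = 1.4e-11 and 6.4e-12). Pcna rose by 0.17 and 0.14 (adjusted p = 4.8e-04 and 0.0017), and Mki67 was at 0.07 and -0.12 (adjusted p = 0.66 and 0.4). The study found no significant change of proliferation by BrdU labelling. Of these 19 markers, 8 were higher and 1 lower with Hdac1 lost than with Hdac2 lost, beside 22.3% and 23.7% of all genes.

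**Figure D5:**
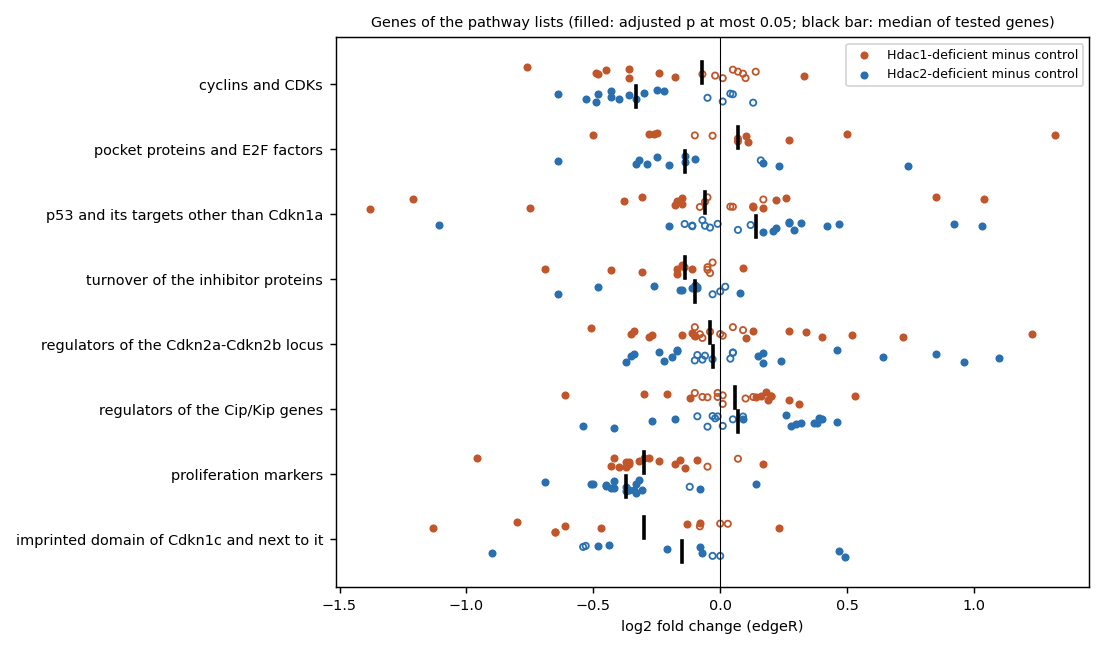
Log2 fold changes of the tested genes in 8 pathway lists for Hdac1-deficient and Hdac2-deficient enteroids against control, with filled points for genes past the limit of 0.05 on the adjusted p and a black bar for the median. The proliferation markers lie mostly below 0 in both mutants (medians -0.30 and -0.37), and the regulators of the Cdkn2a-Cdkn2b locus lie on both sides (medians -0.04 and -0.03).

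Markers of the cell types of the epithelium also differed between the groups, not always in the order of the inhibitor genes. Enterocyte sums were highest in the Hdac1-deficient libraries, whereas Cdkn1a, Cdkn2a and Cdkn2b were highest in the Hdac2-deficient libraries. As background, 32.7% of all genes rose and 31.9% fell with Hdac1 lost, and 31.4% rose and 30.9% fell with Hdac2 lost. Enterocyte markers, 8 of 8, rose in both mutants, with a summed level of 8553 to 9061 CPM in control, 17035 to 19641 in the Hdac1-deficient and 13870 to 15665 in the Hdac2-deficient libraries. Of 5 stem cell markers, 1 rose and 4 fell in the Hdac1-deficient and 0 rose and 4 fell in the Hdac2-deficient enteroids, with sums of 3446 to 3647, 1934 to 2260 and 1612 to 1803 CPM. Goblet cell markers were at 1583 to 1840, 1711 to 1835 and 2658 to 2887 CPM, and 6 of 6 rose in the Hdac2-deficient enteroids, against 3 up and 1 down in the Hdac1-deficient enteroids. Of 6 Paneth cell markers listed, 2 rose and 1 fell in the Hdac1-deficient and 5 rose in the Hdac2-deficient enteroids, with sums of 2132 to 2484, 3097 to 3361 and 3378 to 3531 CPM. Of 6 enteroendocrine markers, 5 rose in the former and 3 rose and 1 fell in the latter (236 to 246, 271 to 308 and 280 to 301 CPM), and of 4 tuft cell markers listed, 1 rose in the former and 2 fell in the latter (5.5 to 6.51, 5.58 to 7.8 and 3.69 to 4.73 CPM). The part of these shifts in the changes of the inhibitor genes was not tested, and in bulk RNA fewer cells of a type and less RNA per cell cannot be told apart.

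The genes whose pattern over the 12 libraries was most like that of a member were sought among 10647 genes by Pearson's r of log2 CPM. The libraries share their group, so r describes mostly the group levels. For Cdkn1a these were Acp5 (r = 0.994), Smpdl3b (0.993) and Trp53inp2 (0.991), and Smpdl3b was at 21.1 ± 0.752, 22.5 ± 0.399 and 55.8 ± 3.65 CPM. For Cdkn2a they were Tjp3, Uso1 (both 0.987) and Vnn1 (0.986), with Vnn1 at 2.2 ± 0.187, 10.3 ± 1.51 and 17.7 ± 1.36 CPM, and for Cdkn2b Tstd1 (0.994), Mfsd2a (0.993) and Cxcl16 (0.992), with Cxcl16 at 19.1 ± 1.21, 31.6 ± 1.89 and 42.6 ± 2.73 CPM.

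For the members with small changes the likeness was lower. Sgsm2 and Pdcl (both 0.865) were among the genes most like Cdkn1b, and Cdkn1c was most like Pdia4 (0.938), Chmp5 and Hspa4 (both 0.933). Cdkn2c was most like Pold2 (0.963), a subunit of DNA polymerase delta at 85.1 ± 3.33, 77.4 ± 2.92 and 72.3 ± 3.89 CPM, then Proser3 (0.943) and Tsnax (0.939). Cdkn2d was most like Ash2l (0.964), Dnlz (0.962) and Mettl10 (0.961). For Cdkn3 they were Pef1 (0.939), 2810428I15Rik (0.926) and Esco2 (0.918), a cohesin acetyltransferase of S phase at 34.7 ± 0.785, 34.8 ± 2.29 and 30.2 ± 0.914 CPM.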

How the data were processed

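RNA was measured in 12 libraries of jejunal enteroids, 4 per group, from poly(A) RNA with a directional kit and paired reads of 100 nucleotides. The authors aligned reads to GRCm38 with STAR (2.4.0f1, per the labels) and deposited 1 table per mutant of unnormalized counts per gene, with identical control counts in both and every listed gene summing to 10 counts or more. The counting program, annotation and strand setting are not given in the sources used here. The 16 columns of normalized values per library, and the columns of the authors' own comparison (log2 fold change, average log2 CPM, raw and adjusted p-values from DESeq and edgeR), were not used.

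Counts were tested with edgeR 4.0.16 (R 4.3.3; quasi-likelihood, TMM, filterByExpr, Benjamini-Hochberg adjustment over all genes tested), each mutant against control in 8 libraries and the mutants against each other in all 12. The common biological coefficient of variation was 0.0425, 0.0384 and 0.0394. The standard error is the size of the log2 fold change divided by the square root of F. Depth was 20692613 to 30656263 counts per library. The code was tested on simulated data. No library was left out.

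Positions and lengths came from GENCODE M21, which holds 99.4% of the identifiers, and promoter windows from RefSeq on GRCm38.p6. The members, the 8 pathway lists and the 10 marker lists were chosen with earlier results of these data known. The genes named are the members, Hdac1 and Hdac2, list genes changed over 2-fold, up to 3 more changed genes per list, the 3 genes most like a member (mean of at least 4 CPM), and genes within 200 kb of a member. Xist, Ezh2, Suz12, Bmi1, Phc1, Pcna and Mki67 were named after their values were seen. A gene that the rule names is not reported here. Alternatives were DESeq2 1.42.0, relative log expression factors, scaling by library size only, testing without a low-count filter, a minimum mean of 10 counts, other libraries in the fit, a replicate block, an adjusted p of at most 0.01, a 2-fold limit, longest transcript lengths, and each library left out in turn.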

Additional observations from a re-analysis of the deposited data

How the results depend on the processing

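Of the members' log2 fold changes in the 3 comparisons, 164 values under other tests, scalings, filters and samples and 184 values with 1 library left out kept their direction and their side of the threshold. The value of Cdkn3 in Hdac1-deficient enteroids, 0.01 and not past the threshold, changed sign in 6 settings without passing it: -0.00 with no filter on low counts, -0.00 with all 12 libraries in 1 fit, -0.00 without control replicate 1 or Hdac1-deficient replicate 2, -0.01 without control replicate 4 and -0.02 without Hdac1-deficient replicate 3 (range -0.02 to 0.04 with 1 library left out). No member value past the threshold changed sign in these settings. With library size alone in place of TMM, Cdkn1b passed the test in Hdac2-deficient enteroids (log2 fold change -0.10, adjusted p = 0.034). With DESeq2, Cdkn3 did not pass in Hdac2-deficient enteroids (-0.21, adjusted p = 0.061). Leaving out 1 library gave -0.23 to -0.18 for that Cdkn3 value, 0.18 to 0.25 for Cdkn3 between the mutants, and 0.10 to 0.14 for Cdkn1b between the mutants, and the libraries that ended those calls stand beside the values in the report. The causes were not tested.

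Fewer genes were called by construction where a 2-fold limit was added. The members called were then 1, 1 and 0 for Hdac1-deficient against control, Hdac2-deficient against control and the mutants against each other. For Hdac1-deficient and Hdac2-deficient enteroids, the list genes called were 0 and 0 for cyclins and CDKs, 1 and 0 for pocket proteins and E2F factors, 3 and 2 for p53 targets, 0 and 0 for turnover, 1 and 1 for regulators of the Cdkn2a-Cdkn2b locus, 0 and 0 for regulators of the Cip/Kip genes, 0 and 0 for proliferation markers, and 1 and 0 for the imprinted domain. With a limit of 0.01 on the adjusted p, 4, 5 and 4 members were called in the 3 comparisons, without Cdkn2d in Hdac1-deficient enteroids, Cdkn3 in Hdac2-deficient enteroids, and Cdkn1b and Cdkn3 between the mutants, and 5 turnover genes (from 9) and 5 genes of the imprinted domain (from 8) were called in Hdac2-deficient enteroids.

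Levels per length moved by more than 1 SD with the longest transcript in place of all exons. In control, Hdac1-deficient and Hdac2-deficient enteroids they were then 116, 119 and 176 CPM per kb for Cdkn1a, 1.09, 3.09 and 4.47 for Cdkn2a, 8.13, 6.97 and 6.53 for Cdkn2c, 8.3, 7.05 and 6.41 for Cdkn2d, and 4.42, 4.4 and 3.8 for Cdkn3.

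The labels give the groups the same replicate numbers. The correlation of same-numbered libraries' deviations over 10589 genes was -0.24 to 0.111 for Hdac1-deficient and control, 0.036 to 0.201 for Hdac2-deficient and control, and 0.018 to 0.241 for the mutants. In no comparison did all 4 pairs exceed 0.1 (1, 1 and 3 of 4 did), so the numbers were not taken as pairs. In 7 of 12 pairs, however, the first library correlated best with the one of its own number. These were 1 of 4 for Hdac1-deficient and control, 3 of 4 for Hdac2-deficient and control, and 3 of 4 between the mutants. With the replicate number as a block, 5, 6 and 6 members were called in the 3 comparisons, as without it. Depth limits Cdkn2a in control, with 25 to 29 counts per library, and left Gm12603 untested in the Hdac1 comparison.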
